A study of Mus musculus with 6 samples.

Results

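The fibrillar collagen chains examined here are the products of 9 genes, Col1a1, Col1a2, Col2a1, Col3a1, Col5a1, Col5a2, Col5a3, Col11a1 and Col11a2, chosen as members of one protein family and not for their values. They are 9 of the 30176 genes that had a probe set with a single gene symbol on the array, and each of the 9 had exactly 1 such probe set. RNA was taken from the hearts of male C57BL/6 mice 4 weeks after surgery. In the myocardial infarction (MI) group the left descending coronary artery was ligated and the peri-infarct tissue was sampled (3 arrays). In the sham group the operation was done without ligation and the corresponding region was sampled (3 arrays). No source used here gives the age of the mice or states that each array came from a separate heart, so p-values measure the spread between these samples, which may be technical.

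Fibrillar collagens are rod-like proteins of the extracellular matrix, each wound from a triplet of chains that are trimmed outside the cell and packed side by side into fibrils. Collagen I, built from the Col1a1 and Col1a2 chains, and collagen III, built from Col3a1 alone, are the major fibril proteins of the heart and are made mainly by fibroblasts, most of all in a scar. Collagen V, built from the Col5a1, Col5a2 and Col5a3 chains in several combinations, sits inside collagen I fibrils and helps to start them and to set their diameter. Collagens II and XI are known best from cartilage, and collagen XI combines the chains of Col11a1 and Col11a2 with a product of Col2a1.

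Promoter windows are shown for the chains on which the results turn, Col1a2 and Col3a1, which were among the most increased, and Col5a1 and Col5a3, chains of the same collagen that differed in their change. They come from RefSeq (build GRCm38.p6) and run 5′ to 3′ on the strand of the gene, from 250 bases before the annotated start up to the first base of any annotated transcript. Capitals mark matches, on either strand, to CCAAT (the CCAAT box, bound by NF-Y), TATAAA (the TATA box), GGGCGG (the Sp1 site) and CAGAC (a SMAD box).
Col1a2, chr6:4505368-4505617, plus strand: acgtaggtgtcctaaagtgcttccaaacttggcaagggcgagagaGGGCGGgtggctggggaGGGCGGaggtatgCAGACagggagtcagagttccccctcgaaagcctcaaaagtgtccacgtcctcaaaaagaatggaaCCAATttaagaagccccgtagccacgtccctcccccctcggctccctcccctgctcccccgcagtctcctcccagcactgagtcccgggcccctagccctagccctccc
Col3a1, chr1:45311288-45311537, plus strand: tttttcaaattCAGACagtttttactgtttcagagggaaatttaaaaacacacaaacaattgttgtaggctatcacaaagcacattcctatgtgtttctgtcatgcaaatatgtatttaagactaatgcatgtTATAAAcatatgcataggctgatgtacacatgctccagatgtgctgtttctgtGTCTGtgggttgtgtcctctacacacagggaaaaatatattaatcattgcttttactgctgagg
Col5a1, chr2:27886175-27886380, plus strand: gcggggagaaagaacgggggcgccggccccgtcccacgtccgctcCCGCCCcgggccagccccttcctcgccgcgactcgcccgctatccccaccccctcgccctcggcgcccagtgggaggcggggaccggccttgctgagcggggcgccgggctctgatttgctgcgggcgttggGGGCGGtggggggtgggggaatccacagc
Col5a3, chr9:20815118-20815317, minus strand: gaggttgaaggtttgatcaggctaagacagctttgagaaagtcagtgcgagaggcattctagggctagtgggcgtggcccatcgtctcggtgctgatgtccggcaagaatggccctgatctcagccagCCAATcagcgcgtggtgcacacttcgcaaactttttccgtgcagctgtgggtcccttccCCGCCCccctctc
Windows were found for 6 of the 9 genes, and Col1a1, Col2a1 and Col5a2 had no entry. Over the full window of 300 bases, which ends 50 bases after the start, the Sp1 letters occurred in 5 of the 6 members and in 35.7% of all 32851 promoters. The SMAD box letters occurred in 4 members and in 49.6% of all promoters, and CCAAT in 3 members (Col1a2, Col5a3 and Col11a1) and in 37.4% of all. TATAAA occurred in Col3a1 and Col11a2 and in 13.6% of all promoters, and the letters of the AP-1 site, TGAGTCA, occurred in 0 of the 6 members and in 5.20% of all. Col3a1 and Col5a1, which both rose in MI, stood on opposite sides of the median G and C content of all promoters (52.7%), with 37.7% in the Col3a1 window and a content in the Col5a1 window above the 61.0% of Col1a2 and the 63.3% of Col5a3. These are matches of letters only.

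Values are the deposited log2 signals of the arrays. Since brightness also depends on the probes, the level of one chain is not set against that of another, and only changes are compared. Each array carries 23 background controls, of which the brightest had a log2 signal between 5.12 and 6.08. Chains no brighter than this control on the same array are called within the background range, where any background in the signal would make a change look smaller than it is. Heart muscle markers were bright in every array: the mean log2 signal over 10 cardiomyocyte genes lay between 17.66 and 17.67 in sham and between 17.31 and 17.50 in MI. Of these, Tnnt2 and Actc1 had the same rounded signals in every array, from 19.79 to 19.93. Whether such signals lay near the top of the scale, where changes look smaller, was not tested. In bulk tissue, more cells of a type and more RNA per cell cannot be told apart.

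Of the 9 chains, 6 were up-regulated in the peri-infarct tissue compared with sham, and none was down-regulated. The increase was large for both chains of collagen I, for collagen III and for Col5a2, smaller for Col5a1 and Col11a1, and did not pass the test for Col2a1 and Col5a3. Tests were made with limma on the 32979 probe sets whose mean log2 signal reached 4.36, with Benjamini-Hochberg adjustment over all of them and a threshold of 0.05. The filter kept 8 of the 9 chains and left out Col11a2. Col11a1 and Col2a1 had mean signals of 4.19 and 4.21 in sham, below the filter, and passed it only through their MI arrays. Over all probe sets tested, 6.61% were called, 2.97% higher and 3.64% lower. The median log2 fold change of the 8 tested chains was 2.20, against 0.01 over all probe sets tested. No chain had a change near this median, which lies between 1.13 for Col5a1 and 3.26 for Col5a2. With the untested Col11a2 (0.04) included, the middle chain of the 9 is Col5a1, at 1.13. Col1a1, Col1a2, Col3a1, Col5a1 and Col5a2 are also among the genes that the study chose from these same samples, so their direction is not independent evidence.

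**Figure D1:**
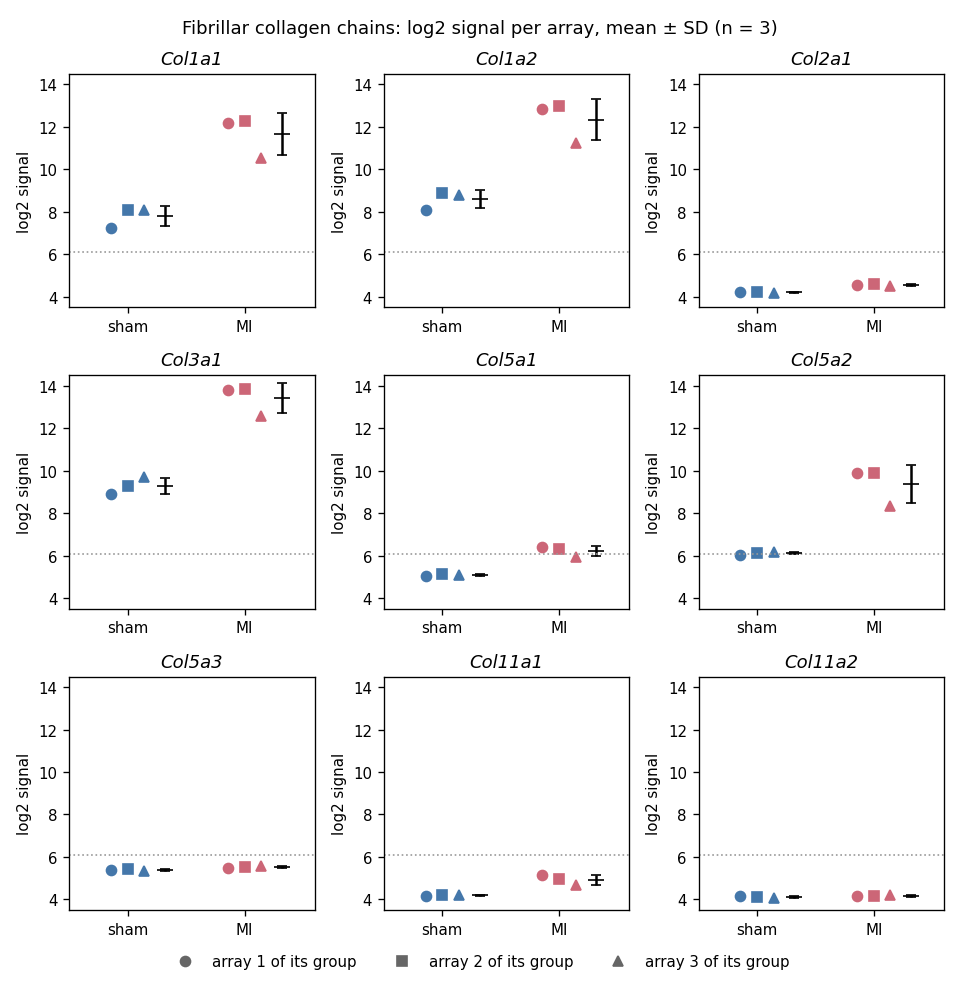
Log2 signal of each fibrillar collagen chain in the 3 sham arrays (blue) and the 3 MI arrays (red), with the mean ± SD (n = 3) as a black bar. The dotted line is the highest background control of any array (6.08), and Col1a1, Col1a2, Col3a1 and Col5a2 are the chains whose MI signals all lie well above it.

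Collagen I showed the same picture in both of its chains. Col1a1 had a log2 signal of 7.25, 8.10 and 8.08 in sham 1 to 3 and of 12.19, 12.28 and 10.52 in MI 1 to 3. The groups did not overlap, the closest arrays of the groups being 2.41 apart, and MI 3 was the lowest MI array and sham 1 the lowest sham array. The increase was 3.85 on the log2 scale (limma, standard error (SE) 0.52, adjusted p = 0.0205). Col1a2 had a log2 signal of 8.10, 8.88 and 8.81 in sham and of 12.83, 12.96 and 11.25 in MI. The same arrays were lowest in each group, and no sham array came near the MI arrays. The increase was 3.75 (limma, SE 0.49, adjusted p = 0.0196). Among 17492 genes tested, the increases of Col1a1 and Col1a2 ranked 23rd and 24th.

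Col3a1, the only chain of collagen III, had a log2 signal of 8.89, 9.27 and 9.68 in sham and of 13.79, 13.87 and 12.59 in MI. The lowest MI array lay 2.91 above the highest sham array, the widest gap of the 9 chains. With 4.14 (limma, SE 0.39, adjusted p = 0.0125) it had the largest log2 fold change of the family, which ranked 19th among the genes tested.

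The chains of collagen V differed widely in their change. Col5a2 had a log2 signal of 6.05, 6.12 and 6.18 in sham and of 9.91, 9.89 and 8.33 in MI. The sham arrays were close together and MI 3 again stood below MI 1 and MI 2. Signals rose by 3.26 on average (limma, SE 0.43, adjusted p = 0.0196), the 41st largest increase. Col5a2 is the entry next to Col3a1 in the RefSeq gene order, with no gene listed between them. Col5a1 had a log2 signal of 5.04, 5.13 and 5.09 in sham and of 6.40, 6.32 and 5.93 in MI. All sham arrays and MI 3 were within the background range, and the groups were still 0.81 apart. The mean increase of 1.13 passed the test (limma, SE 0.14, adjusted p = 0.0175). Col5a3, a chain of a less common form of collagen V, had a log2 signal of 5.39, 5.44 and 5.32 in sham and of 5.49, 5.54 and 5.56 in MI. The MI arrays lay above the sham arrays by as little as 0.05, and MI 1 alone was above the background range. A mean difference of 0.15 did not pass (limma, SE 0.08, adjusted p = 0.332).

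Of the chains of cartilage collagens, Col11a1 alone was called. It had a log2 signal of 4.17, 4.21 and 4.20 in sham and of 5.15, 4.94 and 4.68 in MI. The groups did not overlap, but MI 1 was the only array above the background range. It rose by 0.73 (limma, SE 0.13, adjusted p = 0.0350). Col2a1, the chain of collagen II, had a log2 signal of 4.21, 4.24 and 4.17 in sham and of 4.53, 4.61 and 4.51 in MI. Every array was within the background range, and the MI arrays were all higher, by at least 0.27. The mean difference of 0.34 did not pass (limma, SE 0.08, adjusted p = 0.0657). Col11a2 had a log2 signal of 4.16, 4.13 and 4.08 in sham and of 4.14, 4.14 and 4.19 in MI, with overlapping groups, and was not tested. A pair of fibril-forming chains outside the family list also stayed within the background range in every array: Col27a1 with a difference of 0.25 (limma, adjusted p = 0.133) and Col24a1, which was below the filter, with a difference of 0.10.

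**Figure D2:**
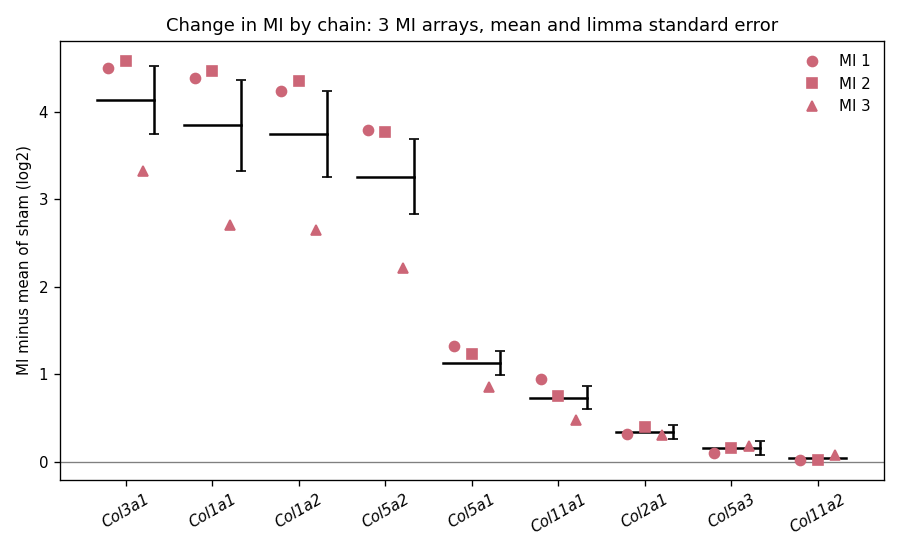
MI signal minus the mean of the sham arrays (log2) for each chain, ordered by the mean change, with 3 MI arrays as points, the mean as a bar and the limma standard error beside it for the 8 chains tested. MI 3 is the lowest point for the 6 called chains, and the changes of Col5a1 and the chains to its right all lie below those of Col5a2.

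The lowest MI signal exceeded the highest sham signal in 8 of the 9 chains, which is all 8 of those tested, whereas this was so for 15.0% of all probe sets tested (31.8% had no overlap in either direction). Col11a1 and Col2a1 were among the tested chains only through their MI signals, so the count for tested chains depends in part on the filter. Within each MI array the increase over the sham mean followed the same order, Col3a1, then Col1a1, Col1a2 and Col5a2: it was 4.51, 4.39, 4.24 and 3.79 in MI 1 and 3.32, 2.71, 2.65 and 2.21 in MI 3. The ranges of these 4 chains over the MI arrays overlapped. Below them, the highest increase of Col5a1 (1.32) was under the lowest of Col5a2 (2.21), while Col5a1 and Col11a1 overlapped (0.85 to 1.32 and 0.48 to 0.95). Col2a1 (0.30 to 0.40), Col5a3 (0.10 to 0.18) and Col11a2 (0.02 to 0.07) followed in that order without overlap. The 4 chains with the largest changes were the 4 that were above the background range in every array, and the other 5 were within it in all sham arrays. The part of the background in their smaller changes was not tested.

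Calls were lost when any 1 array other than MI 3 was left out, though the sizes of the changes moved little. Without sham 2, without sham 3, without MI 1 or without MI 2, limma called 0 chains, with 7 of the 8 at an unadjusted p under 0.05 in each case. Calls were lost over the whole array as well, with 0 of all 32979 probe sets higher without sham 2, sham 3 or MI 1 and 47 without MI 2. In the same order of settings, 6090, 6340, 6013 and 7095 of all probe sets had an unadjusted p under 0.05, in either direction. Without sham 1 limma called Col3a1 alone, and without MI 3 it called the same number as with all arrays, 6 (155 and 2257 of all probe sets higher, against 980 with all arrays). With the methods' t-test, which called 0.346% of all probe sets higher, 0 chains were called. All 8 had unadjusted p-values under 0.05, as had 7422 of all probe sets in either direction. The change itself, with 1 array omitted at a time, ranged between 3.91 and 4.55 for Col3a1, between 3.55 and 4.43 for Col1a1, between 3.44 and 4.30 for Col1a2, between 2.99 and 3.78 for Col5a2, between 1.04 and 1.28 for Col5a1 and between 0.62 and 0.85 for Col11a1.

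The chains of one collagen were then compared with each other. For each array the log2 signal of one chain was subtracted from that of the other, and the difference in MI was set against that in sham with a two-sided exact permutation test. With 3 arrays per group this exact test can reach no p-value smaller than 0.1. A total of 8 pairs was compared, and 7 of them reached that smallest p (adjusted p = 0.114 over the pairs), with no overlap between the groups. None of the pairs could therefore pass a threshold of 0.05.

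The chains of collagen I changed almost equally. Col1a1 minus Col1a2 was -0.85, -0.78 and -0.74 in sham and -0.64, -0.68 and -0.73 in MI. The difference shifted by 0.10 towards Col1a1 (exact permutation p = 0.1, n = 3), and over all pairings of an MI with a sham array the shift was between 0.00 and 0.21. This shift is small beside the change of either chain. For Col1a1 minus Col3a1, which compares collagen I with collagen III, the values were -1.64, -1.17 and -1.61 in sham and -1.60, -1.59 and -2.08 in MI. The groups overlapped, with a shift of -0.29 (exact permutation p = 0.6, n = 3, range over the pairings -0.91 to 0.04). In size this was close to the SD between arrays, 0.26 in sham and 0.28 in MI.

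The chains of collagen V did not change together. Col5a1 minus Col5a2 was -1.03 ± 0.05 in sham (SD, n = 3), with -1.09 as its lowest value, and -3.51, -3.57 and -2.40 in MI 1 to 3. The shift of -2.13 towards Col5a2 ranged from -2.57 to -1.31 over the pairings (exact permutation p = 0.1, n = 3). Col5a2 minus Col5a3 shifted by 3.11 (1.91 to 3.76, same p) and Col5a1 minus Col5a3 by 0.99 (0.61 to 1.27, same p). In each of these pairs at least 1 chain was within the background range in all sham arrays, where a change can look smaller than it is.

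In collagen XI the shift favoured Col11a1 over its partners. Col11a1 minus Col11a2 shifted by 0.69 (0.37 to 0.99 over the pairings) and Col11a1 minus Col2a1 by 0.39 (0.14 to 0.66). Col11a2 minus Col2a1 shifted by -0.30 (-0.41 to -0.21), so that Col11a2 changed least. All 3 pairs had an exact permutation p of 0.1 (n = 3), and the 3 chains were within the background range in every array but MI 1 for Col11a1.

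**Figure D3:**
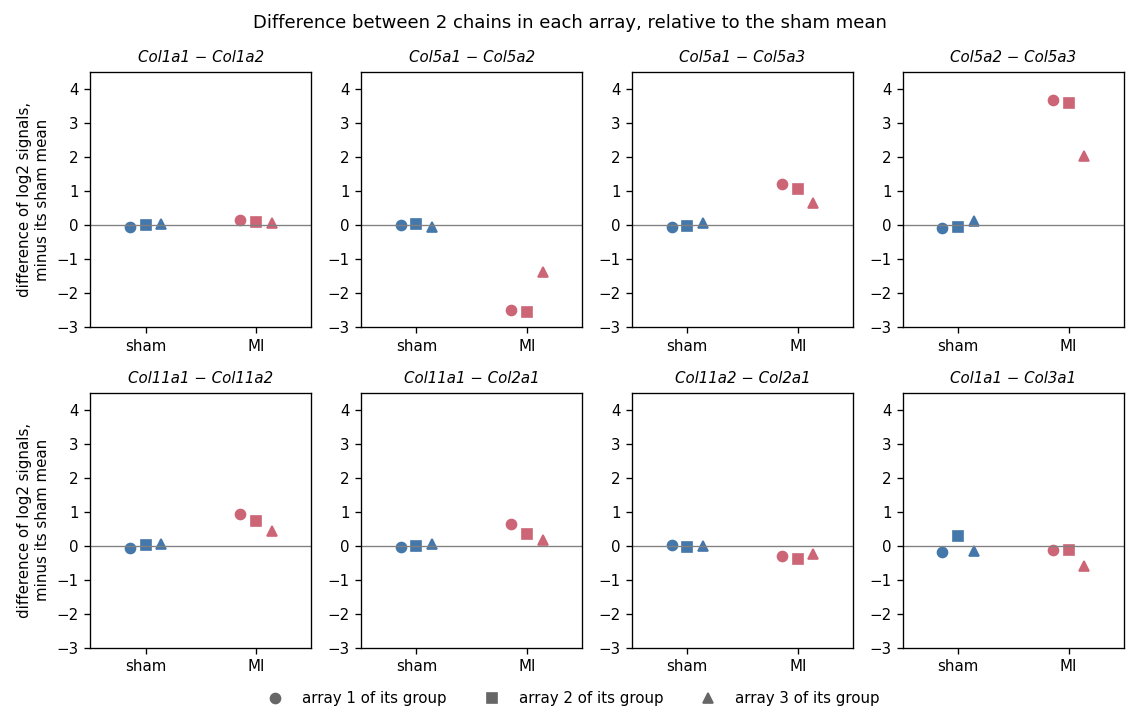
Difference between the log2 signals of 2 chains in each array, with the mean of the sham arrays set to 0, for the 8 pairs compared. The collagen I pair stays near 0 in MI (shift 0.10), the pairs that hold Col5a2 move furthest (-2.13 and 3.11), and the sham and MI points of Col1a1 minus Col3a1 overlap.

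Array MI 3 stood apart within its group in the chains that rose. Its signal minus the mean of MI 1 and MI 2 was -1.72 for Col1a1, -1.65 for Col1a2, -1.57 for Col5a2, -1.24 for Col3a1, -0.42 for Col5a1 and -0.37 for Col11a1, while MI 1 and MI 2 differed by no more than 0.20 for any chain. The mean signal of 8 fibroblast markers was also lower in MI 3 (-0.65 by the same measure), as was that of 8 activated fibroblast markers (-0.96). Those of macrophage (-0.54) and endothelial (-0.19) markers were lower as well. That of the cardiomyocyte markers was higher (0.14). Not every marker followed its mean: Lum was highest in MI 3 (14.26, against 13.86 and 13.11 in MI 1 and MI 2). Myh6, Tnnt2, Actn2 and Actc1 were lowest in MI 3 among the MI arrays. For sham 1 against the mean of sham 2 and sham 3 the values were -0.84 for Col1a1, -0.74 for Col1a2 and -0.59 for Col3a1, but -0.10 for Col5a2. They were -0.28 for the fibroblast markers and -0.44 for the macrophage markers. The part of these markers in the differences between arrays was not tested.

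Markers of fibroblasts, the main source of these collagens in the heart, were higher in MI. Of 8 tested fibroblast markers, 6 were higher and none lower, where 2.97% of all probe sets tested were called higher. Their mean signal lay between 9.60 and 9.91 in sham and between 11.38 and 12.11 in MI. Tcf21 (log2 fold change 0.40, adjusted p = 0.356 from limma, overlapping groups) and Col15a1 (1.23, adjusted p = 0.147) did not pass. Of 8 activated fibroblast markers 6 were higher, with means of 7.36 to 7.67 and 9.30 to 10.28. Among the 6, Tnc had a sham mean of 4.31, below the filter, and was tested only through its MI arrays. The 2 not called were Fap (log2 fold change 0.61, adjusted p = 0.0625 from limma) and Acta2, which went the other way (-0.58, adjusted p = 0.376). Of 10 chondrocyte markers, the cells for which collagens II and XI are typical, 7 were below the filter, and Acan (aggrecan), Matn1, Matn3, Hapln1 and Col9a1 were within the background range in all arrays. Comp and Sox9 were the 2 chondrocyte markers called higher. Of 6 macrophage markers 2 were higher, and Cd163 went the other way without being called (-0.52, adjusted p = 0.216 from limma). Limma called none of the cardiomyocyte (10), endothelial (5) or smooth muscle and pericyte (6) markers. Over all arrays, mean signals were 11.93 to 12.44 for endothelial and 9.95 to 10.35 for smooth muscle and pericyte markers. At an unadjusted p under 0.05, however, 4 cardiomyocyte, 2 endothelial and 2 smooth muscle and pericyte markers were lower and 0 higher. Over all 32979 probe sets tested, 8150 were under that p in either direction. All MI arrays lay below all sham arrays in 7 of the 10 cardiomyocyte markers, against 16.8% of all probe sets tested. The mean log2 difference was largest for Ryr2, the calcium release channel (-0.89), and Tnni3, cardiac troponin I (-0.46). It was as small as -0.11 for Pln, -0.10 for Actn2 and -0.09 for Myh6, and the median over the 10 markers was -0.13. Lymphocyte markers were within the background range (4.29 to 4.66), and of the erythroid list only Alas2 had a value of its own, with a log2 fold change of 0.00. The part of cell numbers in the rise of the collagen chains was not tested.

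Genes of the collagen pathway were counted from lists written from general knowledge, to be read against the 2.97% of all probe sets that were called higher. These lists share genes with the cell type markers, so the counts are not separate. Shared are Dcn, Dpt, Lum, Postn, Comp and Col9a1 (surface partners), Lox (biosynthesis) and Sox9 (regulators). Among enzymes, chaperones and cross-linkers of collagen biosynthesis, 8 of 25 tested genes were higher and none was lower, and the median log2 fold change was 0.52. The largest increases were those of 3 lysyl oxidases, which cross-link fibrils: Loxl3 had a log2 signal of 5.92 ± 0.15 in sham and 9.66 ± 1.24 in MI (SD, n = 3; adjusted p = 0.0255 from limma), and Lox and Loxl1 had log2 fold changes of 3.55 and 3.18. Pcolce2, which enhances the cleavage of the C-propeptide, had one of 1.94. The other called genes were P4ha3 and P4hb, of the prolyl hydroxylase, Plod2, a lysyl hydroxylase, and Bmp1, the C-proteinase, with 1.62, 0.52, 0.94 and 0.98. Ppib and Crtap, partners in the complex that hydroxylates prolines, had log2 fold changes of 0.75 (adjusted p = 0.215) and 0.48 (adjusted p = 0.555, both from limma), which did not pass. Serpinh1, the collagen chaperone HSP47, chosen after its values were seen, had one of 0.27 (adjusted p = 0.570 from limma).

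Of the proteins that bind the surface of collagen fibrils, 15 of 17 tested genes were higher and none was lower, with a median log2 fold change of 3.03. Comp, which links collagen molecules, had a log2 fold change of 7.48, Postn (periostin) one of 6.38, Fmod (fibromodulin) one of 5.16 and Fn1 (fibronectin), on which fibrils assemble, one of 4.85. Tnxb (0.38, adjusted p = 0.0858 from limma) and Col20a1 (0.11, adjusted p = 0.540) did not pass. Col9a1, Col9a2 and Col9a3, the fibril-associated collagen IX chains of cartilage, were below the filter.

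Of 9 collagen receptors, Mrc2, an uptake receptor for collagen, and Lair1, an inhibitory receptor of immune cells, were higher (log2 fold changes 1.65 and 0.73), and the median of the list was 0.73. The integrin subunit Itgb1 had a log2 fold change of 0.39 (adjusted p = 0.113 from limma) and the kinase receptor Ddr2 one of 0.81 (adjusted p = 0.168). The largest change of the list was that of another integrin subunit, Itga11, named after its values were seen. It rose by 2.32 without overlap but did not pass (adjusted p = 0.0526 from limma). Of the proteases of fibrillar collagen, all 3 that passed the filter were higher: Mmp2 (3.54), Ctsk, cathepsin K (2.12, with all sham arrays in the background range), and Mmp14 (1.66). Another 3, Mmp8, Mmp9 and Mmp13, were below the filter. Among 17 regulators of fibrillar collagen transcription, 4 were higher and 1 was lower, with a median of 0.34. Ccn2 and the ligand Tgfb3 had log2 fold changes of 3.75 and 3.53, and the transcription factors Runx1 and Sox9, the latter an activator of Col2a1 and Col11a2 in cartilage, had 1.25 and 1.14, likewise with all sham arrays in that range. Sox6, its partner in cartilage, was the 1 lower gene and was named after its values were seen, at 7.27 ± 0.14 in sham and 6.48 ± 0.10 in MI (SD, n = 3; limma log2 fold change -0.79, adjusted p = 0.0211). Fli1 (0.16) and Ets1 (-0.03) did not pass.

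These counts also fell when any 1 array other than MI 3 was left out. Without sham 2, sham 3 or MI 1, limma called 0 genes of any of these lists, with 10 to 13 of the biosynthesis genes, 16 of the surface partners, 5 of the receptors, 3 of the proteases and 8 of the regulators higher at an unadjusted p under 0.05. Without MI 2, 6 surface partners were called and 0 of the other lists, and without sham 1 the counts in the same order of lists were 1, 9, 0, 1 and 1. Without MI 3 they were 14, 15, 5, 3 and 8. Over all 32979 probe sets, the number higher in these settings was likewise 0 without sham 2, sham 3 or MI 1, 47 without MI 2, 155 without sham 1 and 2257 without MI 3. An unadjusted p under 0.05, in either direction, was found for 6090 of them without sham 2, 6340 without sham 3 and 6013 without MI 1.

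**Figure D4:**
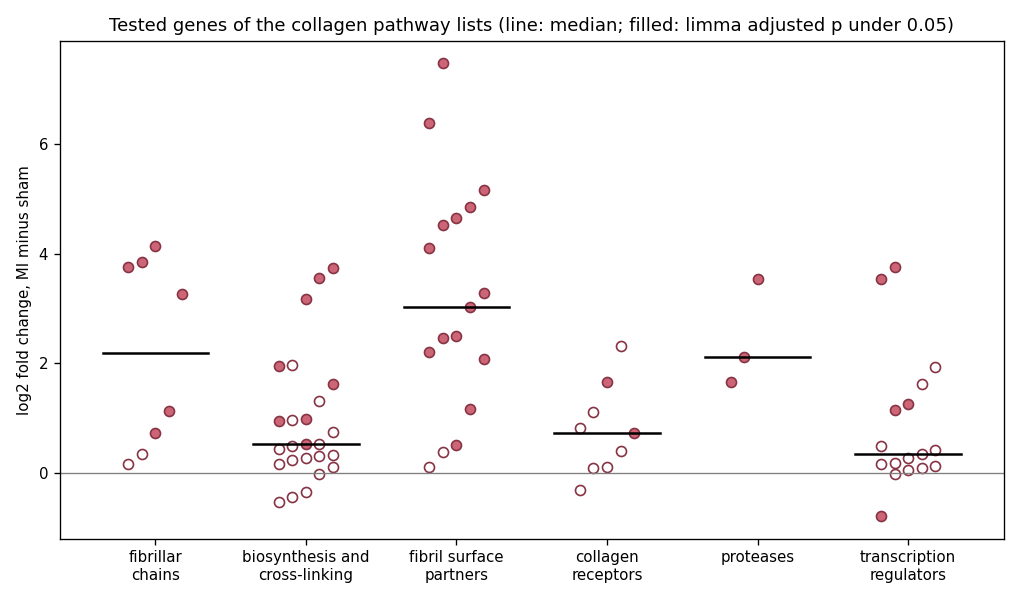
Log2 fold change, MI minus sham, of each tested gene in the fibrillar chain family and in 5 lists of the collagen pathway, with filled points for genes called by limma and a line at the median. The surface partners have the highest median (3.03), and in biosynthesis and cross-linking most points lie below 1 with Lox, Loxl1 and Loxl3 above 3.

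The genes outside the family whose profiles over the 6 arrays were most like those of the chains were listed by the root mean square difference of their log2 signals, each with its sham mean subtracted. For Col1a1 these were Abi3bp, a collagen-binding matrix protein, with a difference of 0.178, then Ccn2 (0.270), Mmp2 (0.288), Lox (0.299) and Tgfb3 (0.302). Col1a2 was closer to Col1a1 than any of them, with 0.086. For Col3a1 they were Col14a1, a fibril-associated collagen (0.210), Mfap5, a microfibril protein (0.295), Mgp, matrix Gla protein (0.312), Abi3bp (0.327) and Nox4, an NADPH oxidase (0.370). For Col5a1 they were Piezo2, a mechanosensitive channel (0.032), Sox9 (0.065), the protease Adamts6 (0.074), the phosphodiesterase Pde1a (0.076) and Btg2 (0.080), all nearer to it than Col5a2 (1.55). These differences grow with the size of the change, so the values are compared only within one chain.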

How the data were processed

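Total RNA of 3 MI and 3 sham samples was hybridized to GeneChip mouse transcriptome arrays 1.0 (Affymetrix). The log2 signals were deposited by the authors after RMA with SKETCH quantile normalization in Affymetrix Expression Console, and were used here without further normalization. The table still holds the dim probe sets that a filter named in the methods would remove, and for the array annotation no genome build is stated in the sources read. Of 72688 probe sets, 6732 controls were left out. Symbols came from the platform table and were updated through the RefSeq gene table, and a gene is represented by its probe set with the highest mean. Probe sets at or above the median mean signal (log2 4.36) were tested two-sided and without covariates, by lmFit and eBayes of limma 3.58.1 (R 4.3.3), and p-values were adjusted by Benjamini-Hochberg. The methods' t-test was run with equal variances. The limma fit and the t-test, but not the filter, were tested on simulated data made from the probe sets that passed the filter. Exact permutation tests used scipy 1.17.1.

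The members and lists were chosen with earlier results of these data known. By rule, named genes were all members, up to 4 called and up to 2 uncalled genes of each list, and the 5 nearest profiles of Col1a1, Col3a1 and Col5a1. P4ha3, P4hb, Plod2, Bmp1, Serpinh1, Itga11, Sox6, the cell type markers and the genes named as below the filter lie outside it and were chosen after their values were seen. Genes found only in probe sets with several symbols, such as Pdgfra, Itga1, Plod3, Loxl2, Egfl7 and the globins, were not used, and Fkbp10, Adamts2, Col21a1 and Runx2 were not matched to a probe set of their own. No array was identical to another. For arrays, their number limits the precision. Alternatives were limma without the filter, with a stricter one (75th percentile), with trend and robust options, with array weights, on median-centred arrays, after quantile normalization, with a replicate block, with single arrays omitted and with probe sets averaged per gene, and the methods' t-test.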

Additional observations from a re-analysis of the deposited data

How the results depend on the processing

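Every chain kept the direction of its change under all alternatives that gave it a value, and the 8 differences between chains moved by less than the spread between arrays. The number of chains called higher was 6 in the main fit, 0 with the methods' t-test and 0 with the replicate block, 5 after quantile normalization (without Col11a1), 7 with array weights (with Col2a1) and between 0 and 6 with 1 array left out. With the methods' t-test the adjusted p of the 6 called chains was 0.0585 to 0.0939. The replicate block also gave 0 called genes for each list and for all probe sets, with 7078 probe sets at an unadjusted p under 0.05. The deviations of same-numbered arrays correlated at -0.287, 0.352 and -0.374. With 3 arrays per group, such correlations cannot decide whether the numbers pair the samples.

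For collagen biosynthesis (8 higher, 0 lower) the number higher was 5 without a filter, with centred arrays and after quantile normalization, 1 with the methods' t-test, 16 with array weights, 0 with the block and 0 to 14 with 1 array left out. The number lower was 2 with array weights, 1 with centred arrays and 0 to 1 with 1 array left out. For surface partners (15) it was 4 with the methods' t-test, 0 with the block and 0 to 15 with 1 array left out. For receptors (2) it was 0 with the methods' t-test, 5 with array weights, 0 with the block and 0 to 5 with 1 array left out. For proteases (3) it was 0 with the methods' t-test and the block and 0 to 3 with 1 array left out. For regulators (4 higher, 1 lower) the number higher was 1 with the methods' t-test, 12 with array weights, 0 with the block and 0 to 8 with 1 array left out, and the number lower was 0 with the methods' t-test and the block and 0 to 1 with 1 array left out. The cause of these shifts was not tested. Over all probe sets, the calls were 1581 without a filter, 272 with the methods' t-test, 10760 with array weights and 2180 in the main fit, and the split of 980 higher and 1200 lower became 835 and 1570 with centred arrays and 750 and 1512 after quantile normalization. Signals within the background range limit what can be said of Col2a1, Col5a1, Col5a3, Col11a1 and Col11a2.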
